A study of Mus musculus with 9 samples.

Results

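The nuclear-encoded genes of the mitochondrial respiratory chain were followed through 9 RNA libraries of mouse blastocysts. They were chosen by symbol alone, as the genes whose names begin with Nduf, Uqcr, Cox4 to Cox8 or Atp5, together with Sdha, Sdhb, Sdhc, Sdhd, Cyc1 and Cycs, and 95 of the 22564 genes in the deposited table met this rule. The blastocysts were C57BL/6 embryos collected on day 3.5 after fertilization by intracytoplasmic sperm injection (ICSI), in which a single sperm is placed inside the oocyte. The dICSI-AOA group received activation-deficient sperm heads, prepared by keeping them warm so that they lost part of their power to activate the oocyte, and then artificial oocyte activation (AOA) with 2.5 µM ionomycin, a calcium ionophore. The ICSI-AOA group received normal sperm and the same ionomycin treatment, and the ICSI group received normal sperm without ionomycin. Each group had 3 libraries, each from the total RNA of 5 pooled blastocysts, namely replicates 1, 4 and 5 of dICSI-AOA, replicates 1, 4 and 5 of ICSI-AOA and replicates 2, 5 and 6 of ICSI. No library of activation-deficient sperm without ionomycin was analysed here, so the sperm and the ionomycin cannot be told apart when dICSI-AOA is set against ICSI.

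The respiratory chain lies in the inner mitochondrial membrane. Complexes I and II pass electrons from NADH and succinate to ubiquinone, complex III passes them on to cytochrome c, and complex IV uses them to reduce oxygen. Complexes I, III and IV pump protons, and complex V, the ATP synthase, lets the protons back and makes ATP. A few subunits are encoded in the mitochondrial DNA and the many others in the nucleus, and the blastocyst is known as the stage at which the embryo raises its oxygen use, mostly in the trophectoderm, the outer layer that forms the placenta.

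The libraries were shallow. They held 128176 to 172307 fragments, a unit obtained by dividing the estimated counts of a library by the step between them, and 6.18% to 9.61% of these came from the mitochondrially encoded subunits. Inner cell mass markers were nearly absent, since Pou5f1, Nanog, Sox2, Esrrb, Fgf4 and Tdgf1 were listed at 0 in all 9 libraries and the 8 genes of that list had 22 fragments together. The 7 sperm genes searched were at 0, and the cumulus cell and oocyte lists had 7 and 5 fragments. Groups were compared by edgeR's quasi-likelihood test on the 4304 genes with a mean FPKM (fragments per kilobase of transcript, scaled to depth) of at least 1. A gene was called where the unadjusted p was under 0.05 and the fold over 1.3, the limits stated in the study's methods. Log2 fold changes carry the group named first on top and come with their standard error (SE). The adjusted p-values given beside them are Benjamini-Hochberg values over the 4304 genes.

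The respiratory chain genes took a small and similar share of every library. Their fragments summed to 192, 167 and 194 in dICSI-AOA, to 201, 176 and 206 in ICSI-AOA, and to 186, 221 and 178 in ICSI. Per 10000 nuclear fragments this was 13.2, 11.8 and 12.7 in dICSI-AOA, 14.4, 12.6 and 14.6 in ICSI-AOA, and 15.5, 14.2 and 13.5 in ICSI. By this share the 3 dICSI-AOA libraries lay below the 3 ICSI libraries, and the ICSI-AOA libraries overlapped both. The order depends on a few genes and on the scale. Without Cox7c, Ndufab1, Ndufb2 and Cox6c, which held the most fragments, the dICSI-AOA and ICSI libraries overlap by this share. In deposited counts, which carry a further factor per library, the sums were 222, 186 and 200 in dICSI-AOA, 257, 155 and 209 in ICSI-AOA, and 161, 206 and 176 in ICSI, and the groups overlapped.

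Few of the 95 genes were measured with more than a handful of fragments. Over all 9 libraries 20 genes had none, 50 had 1 to 9 and 25 had 10 or more, with a median of 3. Only 12 had a fragment in every library, and 4 had at least 10 in each, namely Cox7c, Ndufab1, Ndufb2 and Cox6c, which together held 960 of the 1721 fragments (55.8%). Of these genes 21.1% were at 0 in every library, beside 46.3% of all 22564 genes. The filter kept 32 of the 95 genes (33.7%, against 19.1% of all genes) and left out 63. Atp5f1 at a mean of 0.985 FPKM and Cox7b at 0.982 lay just below it, and Cox8a at 1.06 and Atp5o at 1.08 just above. A gene that passed through high values in 1 group only could enter the test for that reason, so counts over the 32 genes describe those genes alone.

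**Figure D1:**
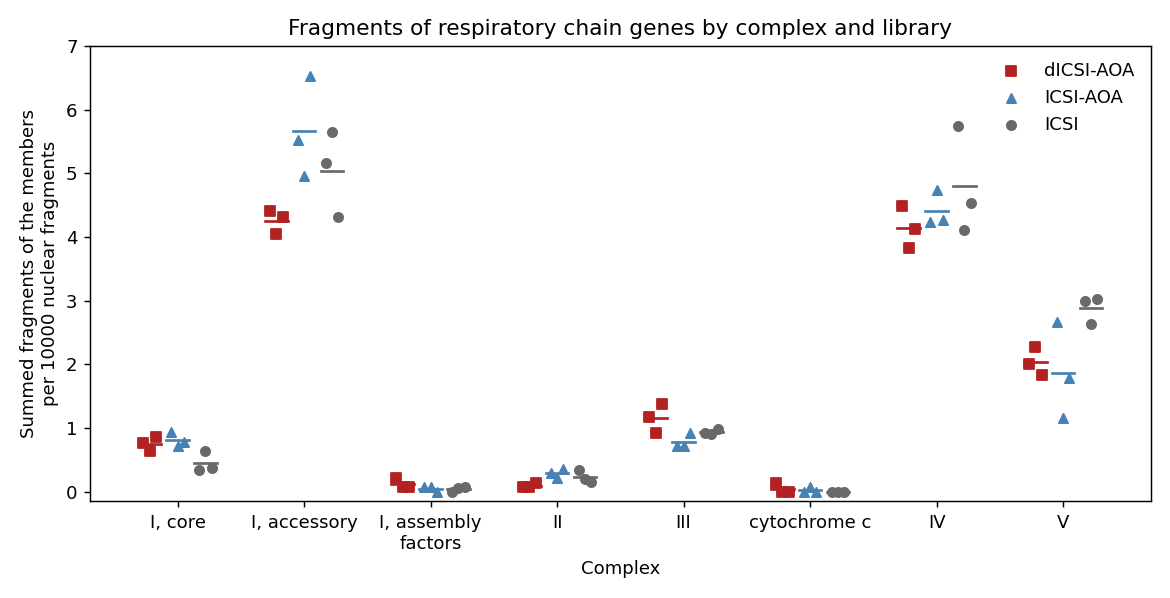
Summed fragments of the respiratory chain genes per 10000 nuclear fragments, by complex (horizontal axis). Each point is 1 of the 9 libraries and each line a group mean. Complex I accessory subunits and complex IV hold most of the fragments in every group. For complex V the 3 dICSI-AOA libraries (1.83 to 2.27) lie below the 3 ICSI libraries (2.63 to 3.02), but not once Atp5sl is taken out. For complex I core subunits the ICSI-AOA libraries (0.717 to 0.934) lie above those of ICSI (0.333 to 0.642). For accessory subunits the ICSI-AOA libraries (4.95 to 6.53) lie above those of dICSI-AOA (4.04 to 4.41), but not once Ndufb2 or Ndufab1 is taken out.

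No respiratory chain gene was called higher in any comparison and 1 was called lower in each. Between ICSI-AOA and ICSI the gene called lower was Atp5a1, 1 of 32, where 4.07% of all tested genes were called lower and 3% higher. Between dICSI-AOA and ICSI it was again Atp5a1, where 3.51% of all tested genes were called lower and 3.07% higher. Between dICSI-AOA and ICSI-AOA it was Cox4i1, where 3% were called lower and 3.62% higher. Cox4i1 passed the filter only through its ICSI-AOA libraries, as described below. A share of 1 in 32 is near these backgrounds. The first and second comparison use the same ICSI libraries, so their values for Atp5a1 are not independent of each other.

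No respiratory chain gene reached an adjusted p of 0.05 with edgeR, and the smallest were 0.611, 0.649 and 0.72 in the 3 comparisons in the order just given. With edgeR 1 of the 32 genes had an unadjusted p under 0.05 in each comparison. With DESeq2 there were 0 in each, and with limma on log2(FPKM + 1) there were 4, 2 and 3, of which none passed adjustment. Groups of TMM-scaled values that did not overlap were found for 3 of the 32 genes in each comparison. Among all tested genes this held for 13.3% in the comparison of ICSI-AOA with ICSI, 11.5% in that of dICSI-AOA with ICSI, and 12% in that of the AOA groups. The 3 genes were Atp5a1, Atp5d and Uqcrh in the first comparison, Atp5a1, Atp5b and Cox6a2 in the second, and Cox4i1, Ndufb2 and Ndufa3 in the third, and all of them were lower in the first named group.

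The median log2 fold change of the 32 genes was 0.16 between ICSI-AOA and ICSI (−0.02 over all tested genes), −0.30 in dICSI-AOA against ICSI (−0.01) and −0.14 in dICSI-AOA against ICSI-AOA (−0.02). These medians depended on the scaling. With the authors' factors, which moved the median of all genes to 0.25, 0.36 and 0.09, the medians of the 32 genes were 0.44, 0.07 and −0.04. With limma on log2(FPKM + 1) they were 0.13, 0.14 and 0.14, beside medians of all genes of 0.20, 0.28 and 0.09. The split of calls over all genes moved as well. It was 129 higher and 175 lower between ICSI-AOA and ICSI, against 306 and 45 with the authors' factors and 269 and 63 with limma on FPKM. Between dICSI-AOA and ICSI it was 132 and 151, against 510 and 45 and 392 and 42, and between dICSI-AOA and ICSI-AOA 156 and 129, against 185 and 74 and 165 and 86.

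**Figure D2:**
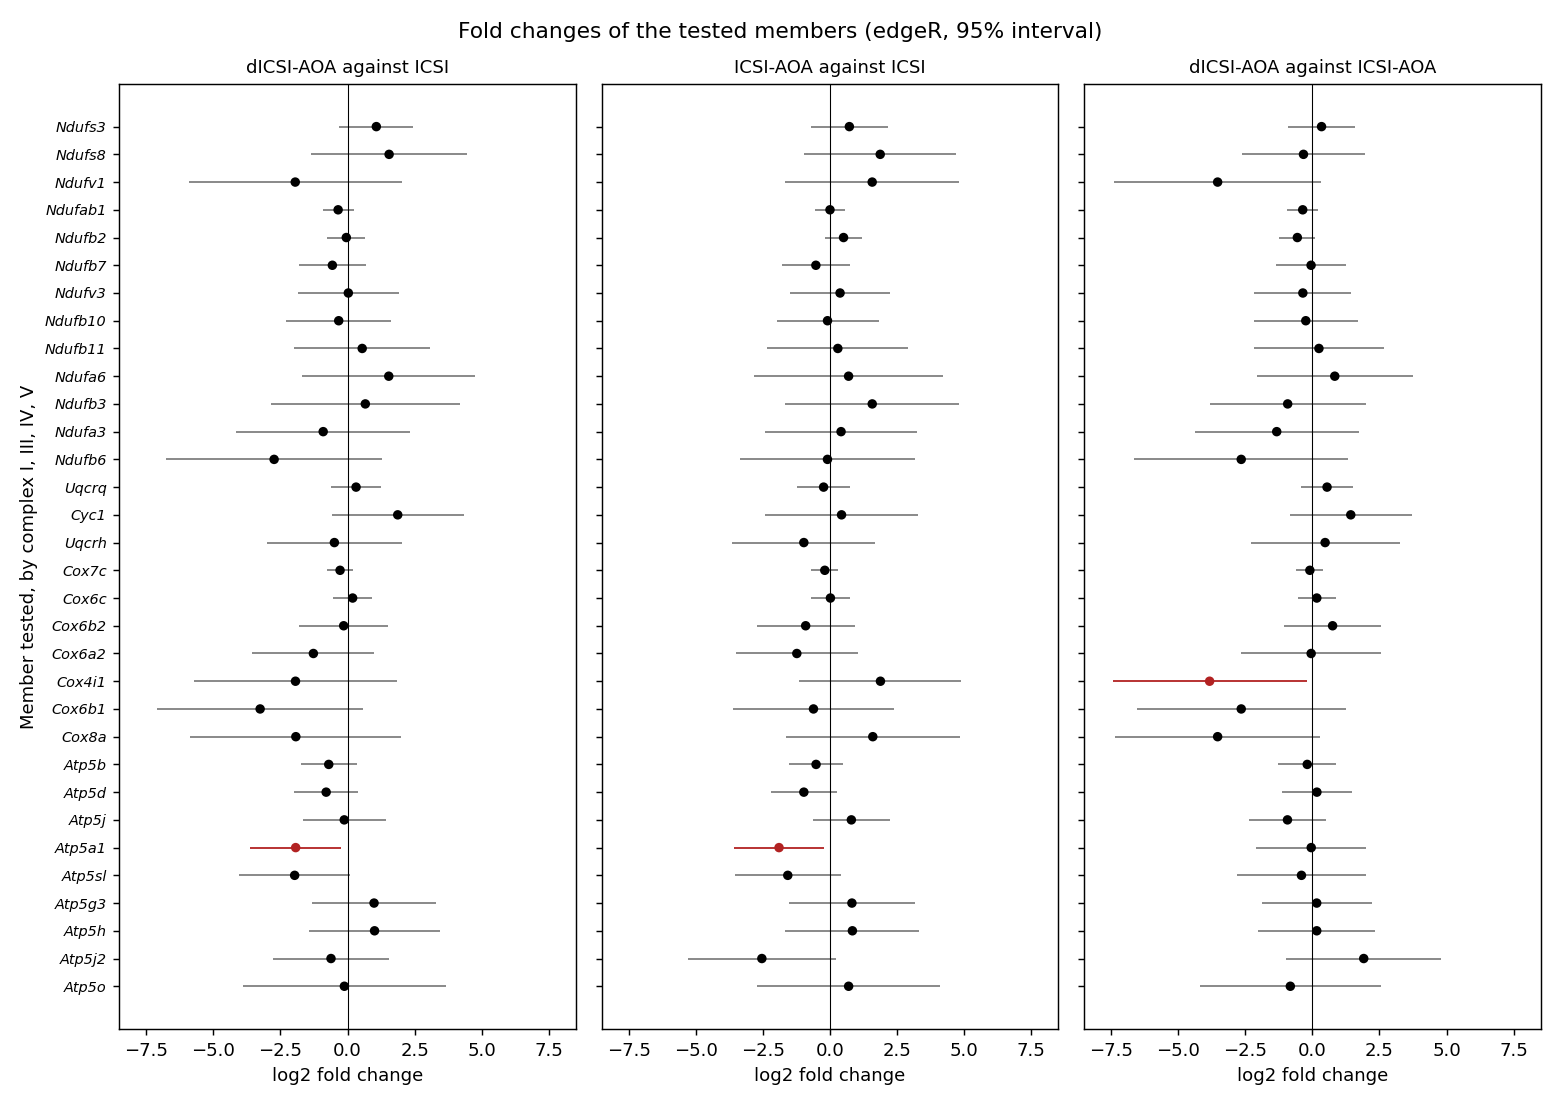
Log2 fold changes of the 32 tested respiratory chain genes (rows, from complex I at the top to complex V) in 3 comparisons, as points with the 95% interval from edgeR on TMM-scaled fragments. Red marks a call at an unadjusted p under 0.05 and a fold over 1.3: Atp5a1 at −1.93 and −1.89 in the panels against ICSI, and Cox4i1 at −3.82 between dICSI-AOA and ICSI-AOA. Intervals are narrow only for the few genes with many fragments, such as Cox7c and Ndufab1.

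Levels were compared between genes by FPKM, which allows for length. Cox7c stood far above the others, at a mean of 84.2 ± 6.7 FPKM (SD, n = 9 libraries), with a lowest value of 75.8, a median of 82.1 and a highest of 95.6. Cox6c followed at 24.4 ± 7.9 FPKM and Ndufab1 at 14.1 ± 3.93. Cox7c did not overlap Cox6c in any library, whose highest value was 37.5, while Cox6c and Ndufab1, whose highest was 20.5, overlapped. The next were Atp5b at 11.6 ± 6.39, Uqcrq at 8.29 ± 4.06, Ndufb2 at 7.4 ± 5.07 and Ndufs3 at 6.99 ± 4.02 FPKM, and these neighbours did not differ beyond their spread. Subunits of an assembled complex are mostly present in equal numbers, but their fragment counts and FPKM in these libraries were not. Within complex IV, Cox7c had 350 fragments and Cox5a, a subunit without known tissue isoforms, had 0. A value of 0 does not show that transcript was absent, as described below for mitochondrially encoded genes. Cox7c has 1 near-identical annotated copy, which was not in the table, and exons of Cox5a overlap 269 bp of a gene on the other strand.

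**Figure D3:**
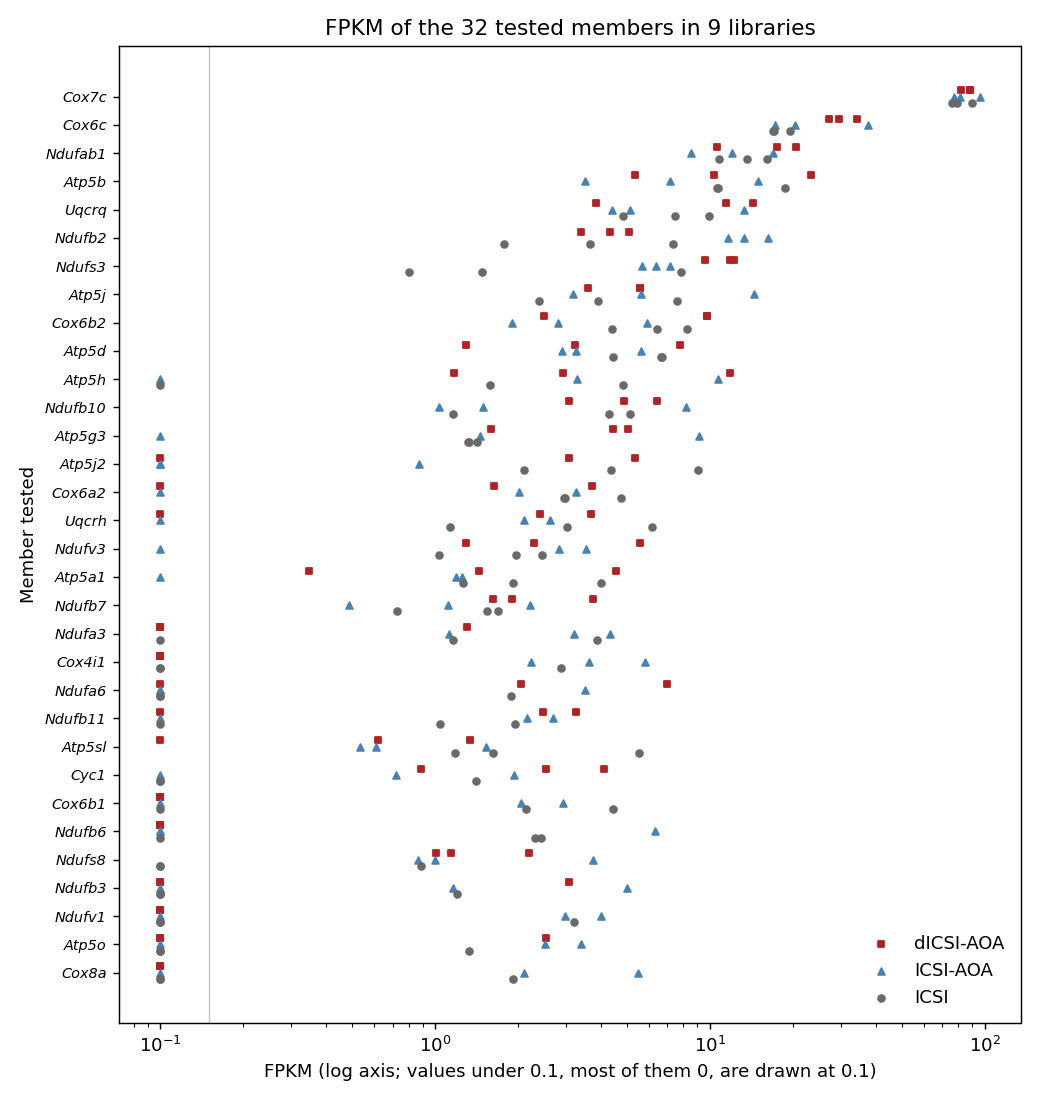
FPKM of the 32 tested respiratory chain genes in each of the 9 libraries (horizontal log axis; values under 0.1 are drawn at 0.1), ordered by their mean from Cox7c, at 75.8 to 95.6 FPKM, down to Cox8a. From Atp5h downward most genes are at 0 in some libraries of at least 1 group.

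Complex I takes electrons from NADH through a peripheral arm, whose core subunits carry flavin and iron-sulfur clusters, and passes them to ubiquinone. Its 7 nuclear core subunits had 86 fragments in sum, and 3 of them were tested. Per 10000 nuclear fragments the sums were 0.934, 0.717 and 0.781 in ICSI-AOA, above 0.333, 0.642 and 0.378 in ICSI. Those of dICSI-AOA, at 0.758, 0.639 and 0.852, overlapped both. In deposited counts ICSI-AOA (16.6, 8.81 and 11.2) and ICSI (3.47, 9.32 and 4.95) overlapped. No test of these sums was run. Ndufs3, a core subunit near the site where ubiquinone is reduced, carried 46 of the 86. It had 10, 6 and 5 fragments in dICSI-AOA, 5, 5 and 6 in ICSI-AOA, and 1, 7 and 1 in ICSI. ICSI replicate 5 thus lay above the ICSI-AOA libraries and within the range of dICSI-AOA, while the other ICSI libraries had 1 fragment each. By edgeR its log2 fold change was 1.07 (SE 0.67, adjusted p = 0.803) in dICSI-AOA against ICSI and 0.72 (SE 0.70, adjusted p = 0.881) in ICSI-AOA against ICSI, and neither was called. Without ICSI replicate 5 the values were 2.45 and 2.11 and both passed the call. In FPKM Ndufs3 had 11.8, 12.2 and 9.62 in dICSI-AOA, 5.66, 6.34 and 7.17 in ICSI-AOA, and 0.801, 7.82 and 1.48 in ICSI, so that dICSI-AOA lay above both other groups. On this scale limma on log2(FPKM + 1) called both comparisons, at 1.84 (adjusted p = 0.338) for dICSI-AOA and 1.11 (adjusted p = 0.634) for ICSI-AOA. With the authors' factors edgeR called it in dICSI-AOA against ICSI, at 1.43 (adjusted p = 0.376). Of the other core subunits Ndufs1, Ndufs8, Ndufv2, Ndufv1 and Ndufs7 had 2 to 14 fragments each over the 9 libraries. Fold changes of the 3 tested core subunits ran between −1.95 and 1.55 in dICSI-AOA against ICSI.

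The 29 accessory subunits of complex I held 632 fragments (36.7% of all), of which Ndufab1 gave 300 and Ndufb2 172. Per 10000 nuclear fragments they summed to 4.41, 4.04 and 4.32 in dICSI-AOA, below 5.53, 4.95 and 6.53 in ICSI-AOA. The ICSI libraries, at 5.16, 5.65 and 4.31, overlapped both. With either Ndufb2 or Ndufab1 taken out, the dICSI-AOA and ICSI-AOA libraries overlap. In deposited counts dICSI-AOA (74.1, 63.4 and 67.7) and ICSI-AOA (98.2, 60.8 and 93.1) overlapped, and these sums were not tested. Ndufab1 is the mitochondrial acyl carrier protein, which sits in complex I and also serves in fatty acid synthesis in the mitochondrion. It had 22, 35 and 31 fragments in dICSI-AOA, 31, 29 and 50 in ICSI-AOA, and 31, 39 and 32 in ICSI. All 3 groups overlapped. Its log2 fold change was −0.35 in dICSI-AOA against ICSI (95% interval −0.93 to 0.22) and 0.00 in ICSI-AOA against ICSI (−0.56 to 0.56). The first interval reaches past the threshold fold on the lower side, and the second on both sides.

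Ndufb2, an accessory subunit of the membrane arm, had 20, 13 and 18 fragments in dICSI-AOA, 24, 29 and 20 in ICSI-AOA, and 11, 24 and 13 in ICSI. ICSI-AOA was the highest group, but its libraries overlapped those of ICSI. Scaled by TMM, the means were 157 ± 28.3 CPM (fragments scaled to a common depth) in ICSI-AOA and 109 ± 36 in ICSI (SD, n = 3 each). The edgeR value was 0.51 (SE 0.33, adjusted p = 0.807). Between dICSI-AOA and ICSI-AOA, where the means were 107 ± 18.7 and 157 ± 28.3 CPM, it was −0.55 (SE 0.33, adjusted p = 0.779), and in dICSI-AOA against ICSI −0.05 (SE 0.35, adjusted p = 0.989). Without ICSI replicate 5 the value between ICSI-AOA and ICSI was 0.82 and passed the call.

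In FPKM the groups of Ndufb2 stood further apart. It had 5.06, 3.4 and 4.31 FPKM in the dICSI-AOA libraries, 13.3, 11.6 and 16.2 in ICSI-AOA, and 1.78, 7.33 and 3.66 in ICSI. The 3 ICSI-AOA libraries lay above the other 6. The ratio of mean FPKM was 3.21 between ICSI-AOA and ICSI, where the ratio of mean CPM was 1.44, and limma on log2(FPKM + 1) called it at 1.61 (adjusted p = 0.415). Between dICSI-AOA and ICSI-AOA the ratio of mean FPKM was 0.311 and that of mean CPM 0.678, and limma called it at −1.48 (adjusted p = 0.511). The FPKM given for 1 deposited count of Ndufb2 was 0.437, 0.453 and 0.806 in ICSI-AOA, but 0.218, 0.235 and 0.235 in dICSI-AOA and 0.187, 0.328 and 0.285 in ICSI. The gap in FPKM was thus wider than the gap in fragments by the change in that ratio, together with the factor per library that deposited counts carry. Such a ratio can move where a gene has transcripts of several lengths, as gene FPKM is summed over transcripts; which transcripts were assigned here was not tested.

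The FPKM per count moved in many of these genes. The highest FPKM per count was more than 1.5 times the lowest in 19 of the 32 tested genes (59.4%, with a median ratio of 1.94), and in 1647 of 4296 tested genes with values in at least a pair of libraries (38.3%, with a median ratio of 1.21). The shares were not tested against each other. Cox7c, with a ratio of 1.11, and Cox6c, with 1.25, were steady, and Ndufb2, with 4.3, Atp5a1, with 4.15, and Ndufab1, with 2.65, were not.

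Ndufb7, another accessory subunit of the membrane arm, had 8, 2 and 4 fragments in dICSI-AOA, 5, 3 and 6 in ICSI-AOA, and 5, 10 and 4 in ICSI. The groups overlapped throughout, and the log2 fold changes against ICSI were −0.57 (SE 0.61) for dICSI-AOA and −0.52 (SE 0.61) for ICSI-AOA. Of the other accessory subunits Ndufv3 had 25, Ndufb10 20 and Ndufb11 12 fragments. Ndufa11, Ndufa12, Ndufa5, Ndufa7, Ndufa8, Ndufb4 and Ndufs6 were at 0 in every library, and the remaining 16 had 1 to 7. Among the 10 tested accessory subunits 4 had a positive and 6 a negative fold change between dICSI-AOA and ICSI, and 7 a positive and 3 a negative one between ICSI-AOA and ICSI.

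**Figure D4:**
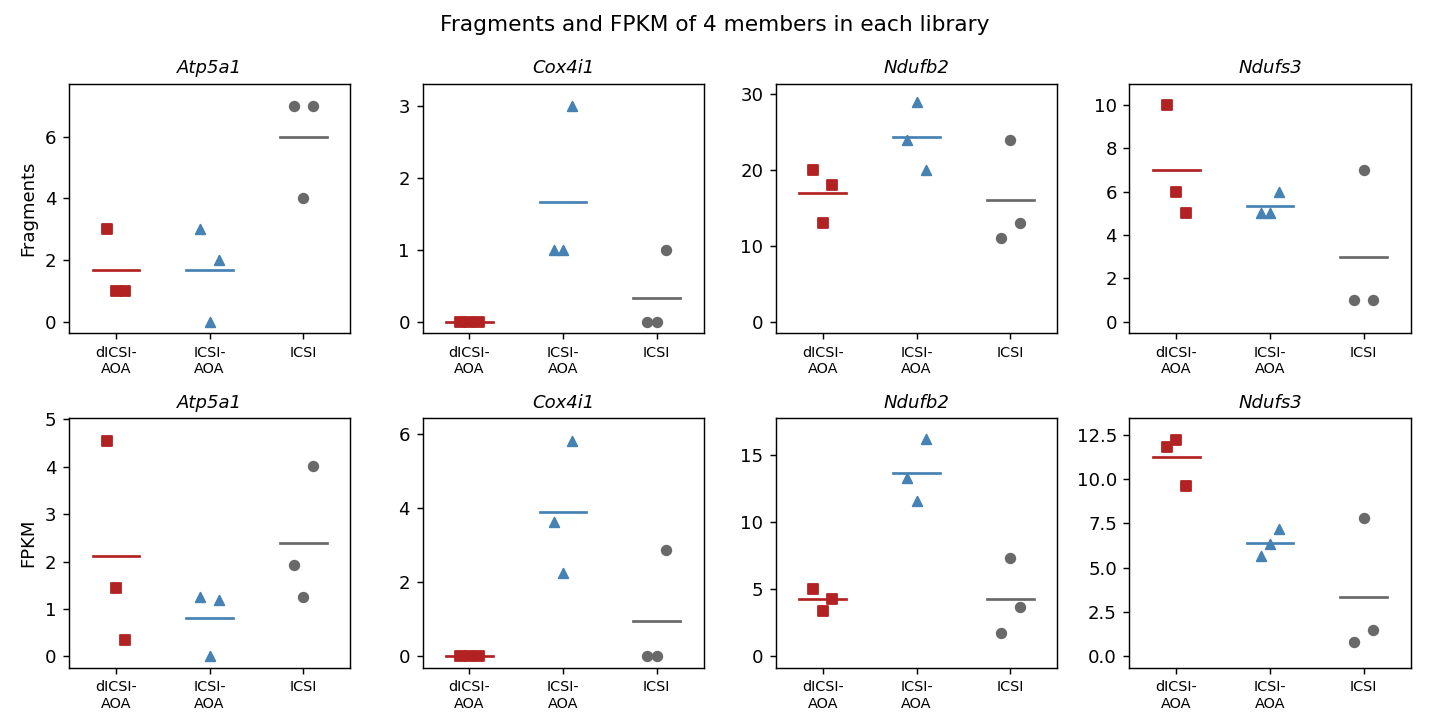
Fragments (upper row) and FPKM (lower row) of Atp5a1, Cox4i1, Ndufb2 and Ndufs3 in each library, with group means as lines. Atp5a1 has 0 to 3 fragments in the 6 AOA libraries and 4 to 7 in the ICSI libraries but overlaps in FPKM, and Ndufb2 overlaps between ICSI-AOA and ICSI in fragments but not in FPKM.

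Complex II, succinate dehydrogenase, is the only respiratory complex made wholly of nuclear-encoded subunits, and it is also an enzyme of the tricarboxylic acid cycle. Its 4 genes had 25 fragments in all and none was tested. Sdha, the flavoprotein that binds succinate, had 0, 1 and 2 fragments in dICSI-AOA, 2, 0 and 4 in ICSI-AOA, and 2, 2 and 1 in ICSI. Sdhc, a membrane anchor, had 0 in the 3 dICSI-AOA libraries, 1, 3 and 0 in ICSI-AOA, and 1, 1 and 1 in ICSI. Sdhb, the iron-sulfur subunit, had 1, 0 and 0 in dICSI-AOA, 1, 0 and 1 in ICSI-AOA, and 1, 0 and 0 in ICSI. Sdhd, the other anchor, had none. The sums by library were 1, 1 and 2 in dICSI-AOA, 4, 3 and 5 in ICSI-AOA, and 4, 3 and 2 in ICSI, and no test of these sums was run. Per 10000 nuclear fragments the dICSI-AOA libraries, at 0.0689, 0.071 and 0.131, lay below the ICSI-AOA libraries, at 0.287, 0.215 and 0.355, and below the ICSI libraries, at 0.333, 0.193 and 0.151. In deposited counts, at 1.16, 1.11 and 2.06 in dICSI-AOA against 3.47, 2.8 and 1.98 in ICSI, the last pair of groups overlapped.

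Complex III hands electrons from ubiquinol to cytochrome c. Its 9 genes had 122 fragments, and 83 of these were from Uqcrq, a small subunit of the membrane part. Uqcrq had 14, 6 and 15 fragments in dICSI-AOA, 6, 7 and 10 in ICSI-AOA, and 9, 6 and 10 in ICSI. The 2 highest libraries were both dICSI-AOA, but the groups overlapped. In edgeR the values were 0.32 (SE 0.46, adjusted p = 0.942) between dICSI-AOA and ICSI and 0.55 (SE 0.46, adjusted p = 0.876) between dICSI-AOA and ICSI-AOA.

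Cyc1, cytochrome c1, the haem-carrying subunit that meets cytochrome c, had 1, 3 and 5 fragments in dICSI-AOA, 2, 1 and 0 in ICSI-AOA, and 0, 2 and 0 in ICSI. The groups overlapped, and the log2 fold change between dICSI-AOA and ICSI was 1.87 (SE 1.19, adjusted p = 0.807). Without ICSI replicate 5, which held both fragments of that group, it was 4.58 and passed the call, against a group then wholly at 0. Uqcrh, the hinge protein, had 1, 2 and 0 fragments in dICSI-AOA, 1, 0 and 1 in ICSI-AOA, and 1, 2 and 1 in ICSI. Uqcrc1, Uqcrc2, Uqcrfs1 and Uqcr11 had 1 to 7 fragments and Uqcr10 and Uqcrb none. Somatic cytochrome c itself, Cycs, had 2, 0 and 0 fragments in dICSI-AOA, 0, 1 and 0 in ICSI-AOA, and none in ICSI.

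Complex IV, cytochrome c oxidase, has its catalytic core encoded in the mitochondrion and a ring of small nuclear subunits around it. Its 20 genes in the rule held 560 fragments (32.5%). Cox7c, a small subunit with a single membrane helix, had 36, 35 and 41 fragments in dICSI-AOA, 36, 44 and 36 in ICSI-AOA, and 45, 39 and 38 in ICSI. The groups overlapped and the libraries stood close together. The means were 235 ± 13.5 CPM in dICSI-AOA, 250 ± 28.5 in ICSI-AOA and 287 ± 53.5 in ICSI (SD, n = 3 each). Against ICSI the log2 fold change was −0.28 for dICSI-AOA (95% interval −0.78 to 0.22) and −0.19 for ICSI-AOA (−0.69 to 0.30), the narrowest intervals among the 32 genes.

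Cox6c, another small membrane subunit, had 18, 17 and 17 fragments in dICSI-AOA, 19, 12 and 14 in ICSI-AOA, and 15, 13 and 13 in ICSI. In raw fragments the dICSI-AOA libraries lay just above those of ICSI, but scaled by TMM they overlapped. This gave a log2 fold change of 0.19 (SE 0.35, 95% interval −0.54 to 0.92). In FPKM it had 34.2, 29.4 and 27.1 in dICSI-AOA, against 19.6, 17.1 and 16.9 in ICSI, and limma on log2(FPKM + 1) called it at 0.72 (adjusted p = 0.465), beside a median of 0.28 over all genes on that scale.

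Cox4i1, the ubiquitous form of subunit 4, which enters early in assembly, was the member called between the AOA groups. It had 0 fragments in each of the 3 dICSI-AOA libraries, 1, 1 and 3 in ICSI-AOA, and 0, 0 and 1 in ICSI. In all, 6 fragments were counted, of which 5 were in ICSI-AOA. In FPKM it had 3.63, 2.24 and 5.82 in ICSI-AOA, 0 in each dICSI-AOA library, and 0, 0 and 2.86 in ICSI. It thus passed the FPKM filter only through the group where it is high, and its call is no independent support for a difference. With the dICSI-AOA group set at 3 fragments, the limit that a count of 0 allows, and the 5 of ICSI-AOA taken as they stand, the level was at least 1.71-fold lower in dICSI-AOA. Counting error in both groups gives an exact 95% interval of 0 to 1.06 for the ratio of dICSI-AOA to ICSI-AOA, which includes no difference. The fitted log2 value was −3.82 (SE 1.75, adjusted p = 0.72 from edgeR), which depends on how a group at 0 is handled. The call was lost without ICSI-AOA replicate 5 (−3.15), and without dICSI-AOA replicate 1, 4 or 5, where the value stayed at −3.81 to −3.82. Between ICSI-AOA and ICSI the ratio was 4.64 with an exact 95% counting interval of 0.519 to 219, and edgeR gave 1.88 (SE 1.46, adjusted p = 0.844). Cox4i1 lies on chromosome 8 at 120668222 to 120674207 (mm10, plus strand), and 154 bp of its exons overlap exons of Emc8 on the other strand, which had 52 fragments.

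For some complex IV subunits the isoform known as tissue-restricted had more fragments than the ubiquitous one. Cox6b2, the form of subunit 6B known from testis, had 4, 1 and 4 fragments in dICSI-AOA, 1, 3 and 1 in ICSI-AOA, and 3, 4 and 2 in ICSI. It was the third most counted gene of the complex, at 23 fragments, while the ubiquitous Cox6b1 had 5. By FPKM Cox6b2 averaged 5.74 and Cox6b1 1.29, and Cox6b2 was the higher in 8 of 9 libraries. Its log2 fold changes were −0.15 (SE 0.81) between dICSI-AOA and ICSI and −0.90 (SE 0.89) between ICSI-AOA and ICSI.

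Cox6a2, the form known from heart and muscle, had 13 fragments and a mean of 2.36 FPKM, against 3 fragments and 0.634 FPKM for the ubiquitous Cox6a1, and it was the higher in 7 of 9 libraries. Ndufa4l2, a gene known for its induction under low oxygen, had 7 fragments, and Ndufa4, its widely expressed relative and a complex IV subunit, had 0. Cox7a1, of heart and muscle, had 2 fragments and Cox7a2 1. The other pairs did not show this order. The restricted forms Cox4i2, Cox7b2 and Cox8c were at 0, where Cox4i1, Cox7b and Cox8a had 6, 5 and 5, and Cox8b had 1. These pairs were chosen after their values were seen, the counts are small, and the orders are given as a description without a test.

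Complex V makes ATP in a soluble F1 head of alpha and beta subunits, inside which a membrane rotor turns the central stalk. Its 18 genes held 284 fragments, and 9 were tested. Per 10000 nuclear fragments they summed to 2, 2.27 and 1.83 in dICSI-AOA, to 2.66, 1.15 and 1.78 in ICSI-AOA, and to 2.99, 2.63 and 3.02 in ICSI. The dICSI-AOA libraries lay below the ICSI libraries and the ICSI-AOA libraries overlapped them. These sums include Atp5sl, described below as an assembly factor of complex I, with 0, 2 and 1 fragments in dICSI-AOA and 1, 8 and 3 in ICSI. Without Atp5sl the dICSI-AOA and ICSI libraries overlap. In deposited counts the sums were 33.6, 35.6 and 28.8 in dICSI-AOA, against 31.2, 38.2 and 39.6 in ICSI, and overlapped. Of the 9 tested genes 7 had a negative fold change between dICSI-AOA and ICSI (median −0.62) and 5 between ICSI-AOA and ICSI (median −0.52), beside −0.01 and −0.02 over all genes. Atp5sl, at −1.97 and −1.57, was among the 9, and both medians are higher without it.

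Atp5a1, the alpha subunit of the F1 head, was the only gene called against ICSI. It had 3, 1 and 1 fragments in dICSI-AOA, 3, 0 and 2 in ICSI-AOA, and 7, 4 and 7 in ICSI. Every AOA library lay below every ICSI library. The means were 10.4 ± 7.04 CPM in dICSI-AOA, 10.8 ± 9.9 in ICSI-AOA and 42.9 ± 15.6 in ICSI (SD, n = 3 each). By edgeR the log2 fold change was −1.93 (SE 0.82, adjusted p = 0.649) for dICSI-AOA and −1.89 (SE 0.82, adjusted p = 0.611) for ICSI-AOA, both against ICSI. From the summed fragments alone, 5 in each AOA group and 18 in ICSI, the ratios were 0.251 (exact 95% counting interval 0.0729 to 0.702) and 0.258 (0.0748 to 0.721). Between dICSI-AOA and ICSI-AOA it was −0.04 (SE 0.99).

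The call of Atp5a1 was lost in several fits that left out a single library, though the value stayed negative in each. The dICSI-AOA call was lost when replicate 2 (−1.73) or 6 (−1.81) of ICSI, or replicate 4 (−1.72) or 5 (−1.67) of dICSI-AOA, was left out. The ICSI-AOA call was lost when replicate 2 (−1.70) or 6 (−1.77) of ICSI, or replicate 4 of ICSI-AOA (−1.34), was left out. In FPKM the groups overlapped, at 4.55, 1.44 and 0.349 in dICSI-AOA, 1.25, 0 and 1.19 in ICSI-AOA, and 1.92, 1.26 and 4.01 in ICSI, and limma on log2(FPKM + 1) gave −0.29 (adjusted p = 0.883) in dICSI-AOA and −0.92 (adjusted p = 0.728) in ICSI-AOA. The FPKM per count of Atp5a1 differed up to 4.15-fold between libraries. Atp5a1 lies on chromosome 18 at 77773729 to 77782869 (mm10, plus strand). Its exons overlap 129 bp of Haus1 on the other strand, which was at 0.

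Among the trophectoderm markers Krt8 was lower in the same groups as Atp5a1. Krt8, a keratin of the trophectoderm, had 2, 4 and 4 fragments in dICSI-AOA, 4, 2 and 1 in ICSI-AOA, and 8, 9 and 13 in ICSI, and was called lower in both AOA groups (−1.69, SE 0.59, adjusted p = 0.513, and −2.15, SE 0.62, adjusted p = 0.415, from edgeR). Elf5, a transcription factor of that lineage, was called lower in ICSI-AOA against ICSI (−1.53, SE 0.64) but not in dICSI-AOA against ICSI (−0.59, SE 0.57). It had 4, 4 and 3 fragments in ICSI-AOA, against 2, 24 and 5 in ICSI, and without ICSI replicate 5 the value was −0.11 and not called, as was also the case without ICSI-AOA replicate 5 (−1.41). The summed level of the 9 markers was 11 to 16 fragments per library in dICSI-AOA, 6 to 11 in ICSI-AOA and 17 to 35 in ICSI. Most of their 138 fragments were from Krt8 and Elf5, so the sum largely repeats these genes and says little of the other markers. Only these 2 of the 9 were tested. Called lower against ICSI were 100% of them in ICSI-AOA and 50% in dICSI-AOA, beside 4.07% and 3.51% of all tested genes. Eomes, Gata3, Tfap2c and Tead4 were at 0. The part of these markers in the values of Atp5a1 was not tested, and in pooled embryos fewer cells of a type and less RNA per cell cannot be told apart.

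Atp5b, the catalytic beta subunit of the F1 head, did not show the same separation in fragments. It had 6, 3 and 10 fragments in dICSI-AOA, 10, 7 and 4 in ICSI-AOA, and 8, 10 and 10 in ICSI. The groups overlapped, although scaled by TMM the dICSI-AOA libraries lay below those of ICSI. EdgeR gave −0.70 (SE 0.50, adjusted p = 0.834) for dICSI-AOA and −0.52 (SE 0.50, adjusted p = 0.881) for ICSI-AOA, both against ICSI.

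Atp5d, the delta subunit of the central stalk, had 1, 9 and 5 fragments in dICSI-AOA, 4, 4 and 5 in ICSI-AOA, and 7, 9 and 8 in ICSI. The ICSI-AOA libraries all lay below those of ICSI, but the value of −0.97 (SE 0.60, adjusted p = 0.762 from edgeR) was not called. Between dICSI-AOA and ICSI it was −0.80 (SE 0.58, adjusted p = 0.836), and without dICSI-AOA replicate 4 it was −1.56 and passed the call. Atp5j, coupling factor 6 of the peripheral stalk, had 3, 4 and 2 fragments in dICSI-AOA, 9, 3 and 5 in ICSI-AOA, and 2, 5 and 2 in ICSI, and its log2 fold changes were −0.12 (SE 0.76) and 0.80 (SE 0.69) against ICSI.

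The other members of the complex were counted less. Atp5j2, the f subunit, had 2, 0 and 3 fragments in dICSI-AOA, 0, 1 and 0 in ICSI-AOA, and 2, 1 and 4 in ICSI, with a fitted value of −2.53 (SE 1.34, adjusted p = 0.721 from edgeR) between ICSI-AOA and ICSI. Atp5sl is named with the complex but is known in human as a factor that helps to assemble complex I. It had 0, 2 and 1 fragments in dICSI-AOA, 2, 1 and 1 in ICSI-AOA, and 1, 8 and 3 in ICSI, with 1 ICSI library at 8 and all others at 3 or less. Atp5h, a peripheral stalk subunit with 16 fragments, has 4 near-identical annotated copies, of which Gm4953 and Gm10250 were in the table with 136 fragments together, so its own count is uncertain. Atp5g2 and Atp5l-ps1 were at 0, and Atp5c1 had 5 of its 6 fragments in dICSI-AOA replicate 4.

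The 7 complex I assembly factors that the symbol rule takes in had 9 fragments and none was tested. Ndufaf2 had none in dICSI-AOA, 1, 1 and 0 in ICSI-AOA, and 0, 1 and 0 in ICSI. Ndufaf3 had 1, 0 and 0 in dICSI-AOA, none in ICSI-AOA, and 0, 0 and 1 in ICSI, and Ndufaf5 had 0, 1 and 1 in dICSI-AOA and none in the other groups. Ndufaf1 and Ndufaf7 were at 0.

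Genes related to the respiratory chain but outside the symbol rule were counted in fixed lists. Of the 13 mitochondrially encoded subunits 10 were tested, and mt-Cytb, mt-Atp6 and mt-Atp8, which every cell with a working chain uses, were listed at 0 in every library. A gene listed at 0 in this table is therefore not shown to be without transcript. Of the 10 tested genes 10% were called lower against ICSI in each AOA group and 20% in dICSI-AOA against ICSI-AOA, beside the 4.07%, 3.51% and 3% of all genes given above, and none was called higher. Between ICSI-AOA and ICSI mt-Co1, a catalytic subunit of complex IV, was lower (−0.52, SE 0.24, adjusted p = 0.668 from edgeR), at 109, 163 and 188 fragments in ICSI-AOA against 132, 300 and 192 in ICSI. The groups overlapped, and the call was lost without ICSI replicate 5 (−0.26), ICSI replicate 6 (−0.55), ICSI-AOA replicate 1 (−0.32) or 4 (−0.56), or dICSI-AOA replicate 5 (−0.52). Between dICSI-AOA and ICSI mt-Nd4, a proton-pumping subunit of complex I, was lower (−0.44, SE 0.19, adjusted p = 0.649). Between dICSI-AOA and ICSI-AOA mt-Nd4 (−0.44, SE 0.19) and mt-Co3 (−1.10, SE 0.46, adjusted p = 0.669) were lower. The counts of mt-Nd4 were 829, 699 and 683 in dICSI-AOA, 858, 950 and 1107 in ICSI-AOA, and 665, 1430 and 674 in ICSI, so that the groups of dICSI-AOA and ICSI overlapped. Without ICSI replicate 5 its value against ICSI was −0.09. Its calls were also lost without dICSI-AOA replicate 4 or 5, and that between the AOA groups without ICSI-AOA replicate 5 (−0.33). For mt-Co3 the call was lost when ICSI-AOA replicate 1 (−1.06) or 5 (−1.07) was left out, or dICSI-AOA replicate 4 (−0.72).

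Of 41 assembly factors outside the rule 37 were in the table and 18 were tested. In ICSI-AOA against ICSI 2 of the 18 (11.1%) were called lower, and in dICSI-AOA against ICSI 1 (5.56%) was called higher. Cox11, which helps insert copper into complex IV, had 4, 8 and 9 fragments in dICSI-AOA, 6, 3 and 0 in ICSI-AOA, and 7, 8 and 11 in ICSI, and was lower in ICSI-AOA against ICSI (−1.60, SE 0.65, adjusted p = 0.599 from edgeR). Coa5, a complex IV assembly factor, was also lower in that comparison (−0.65, SE 0.29, adjusted p = 0.65). The call of Cox11 was lost without ICSI replicate 6 (−1.38) or ICSI-AOA replicate 5 (−1.04), and that of Coa5 without ICSI replicate 2 or 5 or ICSI-AOA replicate 1 or 4 (−0.47 to −0.71). Cox20, a chaperone of the mitochondrially encoded subunit 2, had 148, 166 and 205 fragments in dICSI-AOA, 122, 134 and 130 in ICSI-AOA, and 109, 92 and 132 in ICSI. It was higher in dICSI-AOA against ICSI (0.48, SE 0.20, adjusted p = 0.649), but scaled by TMM the groups overlapped, and without ICSI replicate 5 (0.29) or dICSI-AOA replicate 4 (0.47) or 5 (0.37) it was not called.

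Of the genes of the tricarboxylic acid cycle and pyruvate dehydrogenase (24 in the table, 9 tested) and of mitochondrial biogenesis and transcription (15 and 5), none was called in any comparison. Of 11 genes of coenzyme Q synthesis 7 were tested, and Coq4 was higher in dICSI-AOA against ICSI-AOA (0.82, SE 0.33, adjusted p = 0.66 from edgeR), at 32, 41 and 21 against 14, 15 and 23 fragments. This call was lost without ICSI-AOA replicate 1 (0.69) or 4 (0.73) or dICSI-AOA replicate 4 (0.53). Nrf1 and Gabpa, which encode transcription factors known to drive many nuclear respiratory genes, were at 0 in every library.

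Many of these genes share exonic sequence with a gene on the other strand, and the counting on strands could not be checked from gene values. In the GENCODE vM21 annotation of mm10, 18 of the 95 genes (18.9%) have exons that overlap those of such a partner by at least 100 bp, as do 19.6% of the other protein-coding genes. These 18 held 750 of the 1721 fragments (43.6%), while among the other protein-coding genes those with a partner held 68.3%. For 10 of the 18 the partner was in the table, and it had more fragments than the respiratory gene in 6.

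Uqcrc2, a core subunit of complex III, had 6 fragments and its partner Pdzd9 143. Ndufa13 had 7 and Tssk6, a kinase known from testis, 88. Ndufb5 had 1 and Mrpl47, a mitochondrial ribosomal protein, 323, and Cox6c had 138 and Vps13b 541. In the other direction Atp5j had 35 and its partner Gabpa 0, Atp5a1 28 and Haus1 0, and Atp5f1 16 and Wdr77 1. Ndufab1 and Ndufb2 overlap Gm44986 and Gm16272, for which no value was analysed. Whether fragments of either gene were placed on the strand of the other was not tested.

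**Figure D5:**
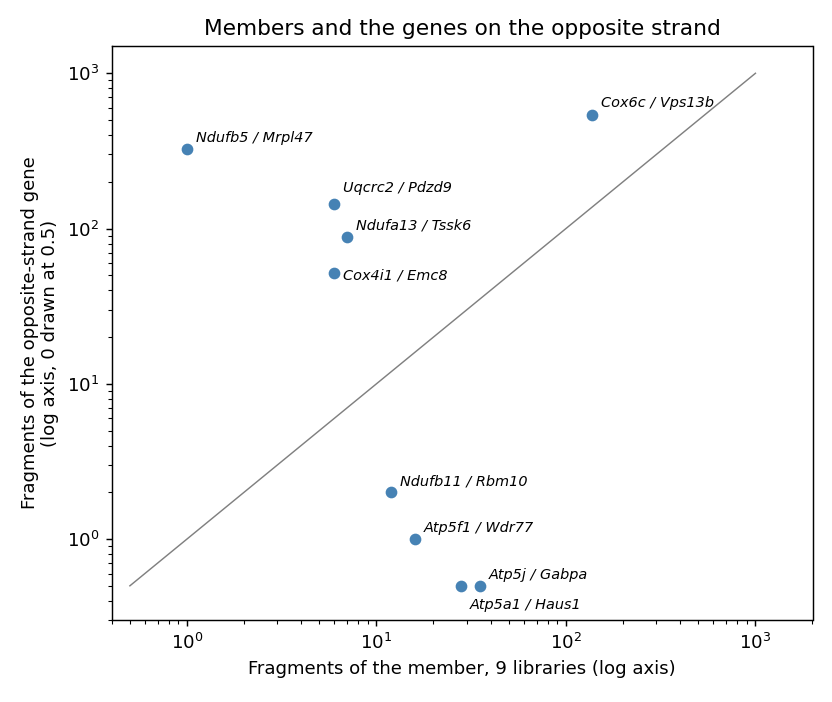
Fragments over 9 libraries of 9 respiratory chain genes whose exons overlap a counted gene on the other strand (horizontal log axis) against those of that partner (vertical log axis, 0 drawn at 0.5). The line marks equal numbers. The partner has more fragments for 5 of these genes, as in Ndufb5 with 1 and Mrpl47 with 323, and fewer for 4.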

How the data were processed

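Reads were paired-end, and the authors trimmed them with cutadapt 1.9.3, aligned them to mm10 with HISAT2 and used Cuffdiff with Ensembl gene models. The tables hold, for each gene and library, FPKM made by the authors and deposited estimated counts, which were read as Cuffdiff's expected fragments multiplied by 1 factor per library. The sources do not state the factor, and this reading rests on the step between values. For HISAT2 and Cuffdiff no version is given in the sources used here. The paper and the labels name different stranded total RNA kits. In each library 95.7% to 96.2% of the positive counts lay within 0.01 of a whole multiple of the most frequent step, so each count was turned into fragments by division by this step and rounding.

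A minimum mean FPKM of 1 left 4304 genes, whose fragments were fitted with edgeR 4.0.16 (TMM, quasi-likelihood, two-sided, all 9 libraries) in R 4.3.3, in 3 comparisons. Alternatives used limma 3.58.1 on log2(FPKM + 1) or log2(FPKM + 0.1), DESeq2 1.42.0, other filters and scalings, a replicate block and the omission of each library. The code was tested on simulated data. Fragments are PCR products without molecular identifiers, so the exact counting intervals and limits cover counting error in fragments only, not in molecules. The intervals given with fold changes are from edgeR's quasi-likelihood fit and also take in the spread between libraries. The study describes 3 independent replicates per group, and p-values measure the spread between these libraries.

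The members, gene lists and tests were chosen with earlier results of these data known. Genes given by library are every member called, the 3 with the most fragments in each complex, and Ndufb2, which the study's list of changed genes had shown. Ndufs3, Atp5j2, Atp5sl, Atp5c1, Atp5h, the complex IV isoforms and the members named at 0 or for their partners were added after their values were seen. The values of 1 member are not reported here. Positions, exon overlaps of at least 100 bp and copies (blastn 2.17.0+, at least 95% identity over 200 bases) are from GENCODE vM21.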

Additional observations from a re-analysis of the deposited data

How the results depend on the processing

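The members called, 1 in each comparison, depended on the processing. The counts below are for ICSI-AOA against ICSI, dICSI-AOA against ICSI and dICSI-AOA against ICSI-AOA, in that order. Limma on log2(FPKM + 1) called 4, 2 and 3 members and limma on log2(FPKM + 0.1) 5, 3 and 3. A mean FPKM of at least 5 (9 members tested), a mean of at least 10 fragments (4 members tested) and DESeq2 each called 0, 0 and 0. The authors' factors called 0, 1 and 1, where the second was Ndufs3 in place of Atp5a1. Without a filter 75 members were tested and 1, 1 and 2 called. Leaving out each library in turn gave 0 to 4, 0 to 3 and 0 to 2. DESeq2 size factors in edgeR, total fragments as scaling and a fit of only the libraries compared each called 1, 1 and 1. No member reached an adjusted p of 0.05 in any of the 20 alternatives, and the smallest was 0.338. Over 15 members in 3 comparisons, 808 of 849 alternative values stayed on their side of the call, 18 passed it, 23 no longer passed it, and 77 changed sign where neither value passed. The call of Atp5a1 held in 10 of 18 alternatives for ICSI-AOA and in 9 of 18 for dICSI-AOA, and that of Cox4i1 in 12 of 18. In each count 3 of the 18 left out a library of the group not compared. These hardly moved the value (−1.89 for Atp5a1 in ICSI-AOA each time), so the counts overstate how far the calls held. The cause was not tested, except that the stricter filters removed both genes.

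The replicate numbers were not taken as pairs. With group means taken out, r between same-numbered libraries of dICSI-AOA and ICSI-AOA was 0.0353, −0.0343 and 0.0592, and between other pairs −0.0783 to 0.0385. Only ICSI replicate 5 shares its number with an AOA library, so with a replicate block both comparisons with ICSI rested on that library. For these only effect sizes are given, with median log2 fold changes of the 32 genes of −0.02 in ICSI-AOA and −0.39 in dICSI-AOA. The block cannot show whether the calls of Atp5a1 held, although it is among the 18 alternatives counted above for each. Between the AOA groups, which share all replicate numbers, no member was called with the block. There 19 of the 4304 tested genes lay under 0.05 in adjusted p (edgeR), against 6 without the block.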
